A study of Homo sapiens with 6 samples.

Results

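The activator protein 1 (AP-1) transcription factors are dimers of FOS and JUN proteins. Its 7 human genes, FOS, FOSB, FOSL1, FOSL2, JUN, JUNB and JUND, were followed in ovarian carcinoma cells that express introduced BARD1 and in control cells. They were taken by gene name from the deposited count table, where each has a single row among 58735 genes. There were 3 BARD1-expressing and 3 control libraries, all given as 48 h and as stable cells. BARD1 forms a ubiquitin ligase together with BRCA1, and the study asked how its expression affects pathways of tumour angiogenesis. Per the labels' protocols the BARD1 reading frame was delivered by lentivirus, with expression of a GFP-BARD1 product checked by microscope. The labels do not say what the control cells carried. OVCAR8ip1 is the name in the titles, but SKOV3ip1 stands in the cell line tag and SKOV3ip1 tumors in the source and tissue entries, so neither the line nor whether cultures or tumours were sampled is settled. Both names stand for human ovarian carcinoma lines, and the cell type tag reads high grade serous adenocarcinoma. Any effect of BARD1 cannot be told apart from other differences between a transduced line and its control.

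All AP-1 proteins share a basic region that grips DNA and a leucine zipper that holds the dimer together. JUN proteins can pair with each other, whereas FOS proteins need a JUN or another zipper protein as partner. FOS and FOSB are the classical immediate early members, silent in resting cells and switched on for a short time by serum or growth factors. FOSL1 (FRA-1) and FOSL2 (FRA-2) lack the strong activation domain of FOS and persist for longer, and FOSL1 is known for high expression in invasive carcinoma cells. JUN is a strong activator, JUNB is a weaker one that can oppose JUN, and JUND is made steadily in most cells. Sites of AP-1 dimers are heptamers of the form TGANTCA or octamers of the form TGANNTCA, and both forms read the same on the opposite strand. Not every sequence of these forms, with N as any base, is an AP-1 site.

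Promoter sequences are shown for a choice of genes of the AP-1 circuit that carry such letters and whose transcripts passed the test given below. AREG, IL1B and MT2A also met this description and are not shown. FOSL2 and JUN are members, CXCL8 and GJA1 are known AP-1 targets that went in opposite directions. Each runs 5′ to 3′ on the gene's strand, from 250 bases before to 50 bases after the RefSeq start (GRCh38.p14), with the matching heptamer or octamer in capitals.
FOSL2: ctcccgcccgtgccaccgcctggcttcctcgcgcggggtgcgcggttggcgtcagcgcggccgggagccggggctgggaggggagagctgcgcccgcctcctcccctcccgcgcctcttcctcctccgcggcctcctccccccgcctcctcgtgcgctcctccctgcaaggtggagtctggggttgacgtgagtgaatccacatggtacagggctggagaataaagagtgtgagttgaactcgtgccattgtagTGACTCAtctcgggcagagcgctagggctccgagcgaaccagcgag
JUN: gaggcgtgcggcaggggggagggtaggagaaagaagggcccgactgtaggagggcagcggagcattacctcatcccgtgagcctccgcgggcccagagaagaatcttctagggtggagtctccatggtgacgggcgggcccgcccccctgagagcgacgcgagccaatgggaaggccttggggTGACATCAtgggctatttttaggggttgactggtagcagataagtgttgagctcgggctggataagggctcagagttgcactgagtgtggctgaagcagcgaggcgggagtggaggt
CXCL8: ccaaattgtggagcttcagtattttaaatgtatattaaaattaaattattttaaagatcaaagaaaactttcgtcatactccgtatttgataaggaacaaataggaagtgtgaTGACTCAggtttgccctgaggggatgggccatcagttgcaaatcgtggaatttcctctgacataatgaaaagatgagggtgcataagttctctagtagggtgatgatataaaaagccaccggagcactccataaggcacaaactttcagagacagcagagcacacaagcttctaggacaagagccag
GJA1: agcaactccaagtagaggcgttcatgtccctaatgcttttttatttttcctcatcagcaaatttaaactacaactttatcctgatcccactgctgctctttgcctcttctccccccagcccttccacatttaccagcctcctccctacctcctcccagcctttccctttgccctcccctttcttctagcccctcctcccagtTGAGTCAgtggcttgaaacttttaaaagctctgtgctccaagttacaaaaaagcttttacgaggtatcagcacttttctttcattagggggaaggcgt
The FOSL2 window is chr2:28392608-28392907 on the plus strand, and its heptamer begins 5 bases into the transcript. The JUN window is chr1:58783998-58784297 on the minus strand, with its octamer beginning 67 bases before the start. In CXCL8 (chr4:73740319-73740618, plus strand) the heptamer lies 137 bases before the start, and in GJA1 (chr6:121435396-121435695, plus strand) it lies 48 bases before. All these positions count from the RefSeq start, which differs from the deposited gene span. The deposited spans of FOSL2 (from 28392448) and JUN (up to 58784327) hold their whole windows. Those of CXCL8 (from 73740506) and GJA1 (from 121435577) begin inside the window, and the GJA1 heptamer lies within the span. FOSL1 had no single promoter window of this length and was left out. Of the other 6 members, 1 held the heptamer (FOSL2) and 2 held the octamer (JUN and JUND). None held a CArG box, the binding sequence of the serum response factor SRF, within the window. Bases further than 250 before the start were not searched, so a CArG box there would be missed, at FOS as at the others. Over all 35116 promoter windows of that length, genes with several windows included, 7.71% held the heptamer, 11.5% the octamer and 1.29% the CArG box. These matches describe letters in a window and show no binding.

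BARD1 transcripts, the check of the labels, stood at 49.0, 44.3 and 45.7 CPM (read counts scaled to library size) in BARD1-expressing libraries against 17.1, 17.2 and 19.4 CPM in control libraries, a log2 fold change of 1.37 ± 0.081 (SE). All CPM use library sizes adjusted by TMM, the trimmed mean of log ratios between libraries. Libraries held 12744310 to 24349158 counted reads in BARD1-expressing cells and 21819199 to 23992482 in control cells, and BARD1-expressing libraries 1 and 3 were the shallowest. Of 15400 genes with enough reads to test, 29.0% passed edgeR's quasi-likelihood test at a Benjamini-Hochberg adjusted p under 0.05, 16.5% higher and 12.4% lower in BARD1-expressing cells. The serous carcinoma markers summed to 3928 to 4195 CPM in BARD1-expressing and 3957 to 4030 CPM in control libraries, with MUC16 and MECOM without a read and most of the sum from keratin genes. Of 11 such markers 8 were tested, and 3 rose and 1 fell by edgeR. By DESeq2 1 rose and 1 fell, and by limma-voom 2 rose and 1 fell. The call of KRT7 as higher held in 13 of 13 alternative settings. That of WT1 was lost in 6 of 12 and that of FOLR1 in 6 of 13. The one that fell was PAX8, a lineage factor of this tumour type, at 91.4 ± 6.09 CPM in BARD1-expressing and 143 ± 8.98 CPM in control cells (SD, n = 3 each, log2 fold change -0.65 ± 0.061 SE, edgeR adjusted p = 1.19e-08). Endothelial markers summed to 5.27 to 7.72 CPM against 1.98 to 2.40 CPM in controls, where 2 of 7 could be tested and both (TIE1 and KDR) rose. The TIE1 call held in 13 of 13 alternative settings. That of KDR, at 5 to 16 reads a library, was lost in 3 of 12. Fibroblast markers summed to 839 to 887 CPM against 1015 to 1082 CPM in controls. Nearly all of this was COL1A1, which fell (means of 845 and 1054 CPM). The 2 other tested members, PDGFRB and LUM, rose. PDGFRB lies on chromosome 5 among genes with a median log2 fold change of 0.45, and LUM had 3 to 15 reads a library. Leukocyte markers summed to 0.708 to 1.59 CPM against 0.745 to 1.07 CPM in controls. The part of such markers in the AP-1 results was not tested. In these bulk libraries, fewer expressing cells and less RNA per cell cannot be told apart.

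All 7 members passed the filter on low counts. FOSL2, JUNB and FOSL1 rose in BARD1-expressing cells and JUN fell, while FOS, FOSB and JUND did not pass the test. That is 4 of 7 called, beside 29.0% of all tested genes, and 3 of 7 higher, beside 16.5%. The members were chosen with earlier results of these data known. The median log2 fold change of the 7 was 0.16, and that of all tested genes was -0.00. The changes of FOSL2 (1.54-fold) and JUNB (1.58-fold) exceeded the median absolute log2 change of 0.41 among called genes, whereas those of FOSL1 (1.12-fold) and JUN (0.910-fold) were smaller. The groups stood apart at 4 members (FOSL2, JUNB, JUN and FOSB), beside 40.9% of all tested genes.

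**Figure D1:**
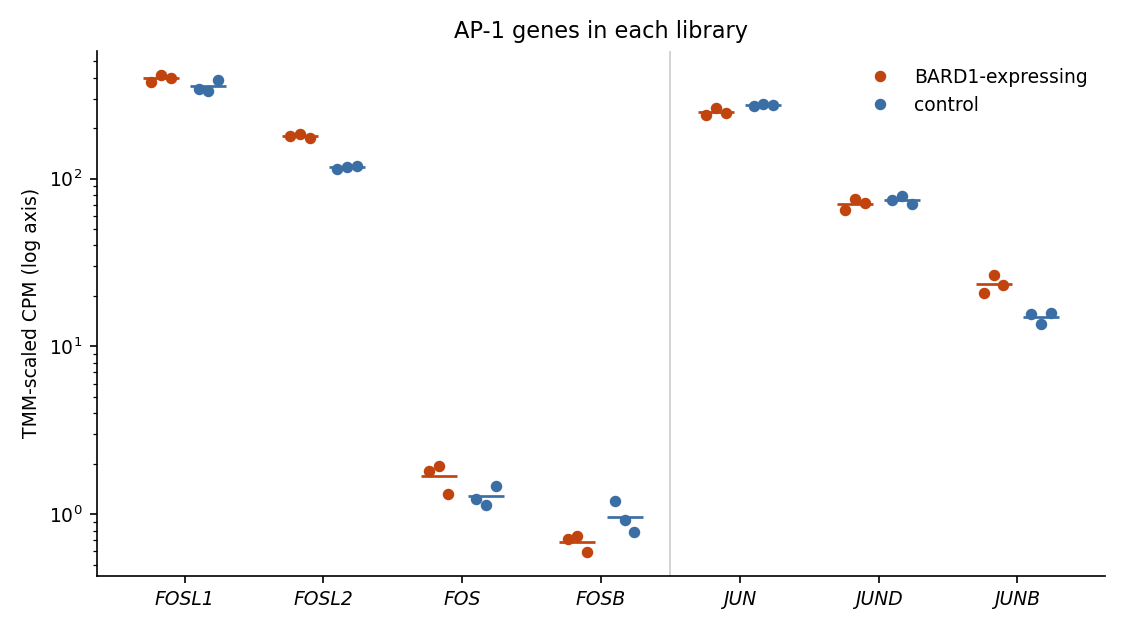
TMM-scaled CPM (log axis) of the 7 AP-1 genes in each library, BARD1-expressing in red and control in blue, with lines at the mean of 3 libraries; FOS class genes are left of the grey line and JUN class genes right of it. FOSL2 and JUNB lie higher in all 3 BARD1-expressing libraries, and FOS and FOSB lie below 2 CPM in every library.

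FOSL1 (ENSG00000175592, chromosome 11, 65892049 to 65900573, minus strand, 4 exon blocks) was the most abundant member. It measured 379.8, 418 and 396 CPM in BARD1-expressing libraries, against 345, 336 and 385 CPM in control libraries. Control library 3 exceeded the lowest BARD1-expressing library, so the groups overlapped. The log2 fold change was 0.16 ± 0.055 (SE, edgeR adjusted p = 0.0267). Leaving out 1 library ended the call in 4 of 6 cases, with edgeR adjusted p-values of 0.116 without BARD1-expressing library 2, 0.111 without BARD1-expressing library 3, 0.127 without control library 1 and 0.212 without control library 2. Permuting the libraries exactly, two-sided and on log2 CPM, gave p = 0.2, where 0.1 is the smallest that 3 against 3 libraries allow.

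FOSL2 (ENSG00000075426, chromosome 2, 28392448 to 28417312, plus strand, 7 exon blocks) showed the clearest change of the family. Its libraries read 181, 184 and 175 CPM in BARD1-expressing cells and 114, 117 and 119.6 CPM in control cells. Every BARD1-expressing library lay above every control library, and the spread within each group was small, at 179.8 ± 4.81 CPM and 117 ± 2.72 CPM (SD, n = 3 each). The log2 fold change was 0.62 ± 0.051 (SE, edgeR adjusted p = 1.27e-09, exact permutation p = 0.1). By p-value FOSL2 ranked 209th of 15400 tested genes, and its change was kept in 13 of 13 alternative settings, within 0.60 to 0.64. An antisense and a sense intronic gene overlap FOSL2, but neither shares an exonic base with it and neither had more than 2 reads in a library.

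FOS (ENSG00000170345, chromosome 14, 75278774 to 75282230, plus strand) was nearly silent. It had 23, 47 and 20 reads in BARD1-expressing libraries and 30, 26 and 32 reads in control libraries, which is 1.81, 1.94 and 1.33 CPM against 1.24, 1.14 and 1.48 CPM. The groups overlapped, and the log2 fold change of 0.42 ± 0.279 (SE) did not pass (edgeR adjusted p = 0.291). FOSB (ENSG00000125740, chromosome 19, 45467995 to 45475179, plus strand) was lower still, with 9, 18 and 9 reads in BARD1-expressing and 29, 21 and 17 reads in control libraries, or 0.708, 0.743 and 0.597 CPM against 1.20, 0.920 and 0.784 CPM. Although the FOSB groups did not overlap, its log2 fold change of -0.49 ± 0.362 (SE) missed the threshold (edgeR adjusted p = 0.341). FOS and FOSB had 9 to 47 reads a library, and their standard errors were the largest of the family. FOSB lies within the span of ERCC1 on the other strand, with no exonic base in common.

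JUN (ENSG00000177606, chromosome 1, 58780788 to 58784327, minus strand) was the leading JUN class gene. Its libraries measured 240.4, 263 and 247 CPM in BARD1-expressing cells against 273, 278 and 275 CPM in control cells. Each BARD1-expressing library lay below each control library, but by little, since the means were 250.2 ± 11.6 CPM and 275 ± 2.33 CPM (SD, n = 3 each). The log2 fold change was -0.14 ± 0.050 (SE, edgeR adjusted p = 0.0415, exact permutation p = 0.1). Leaving out 1 library ended the JUN call in 5 of 6 cases, with edgeR adjusted p-values of 0.0824 without BARD1-expressing library 1, 0.163 without BARD1-expressing library 3, 0.0688 without control library 1, 0.136 without control library 2 and 0.0797 without control library 3.

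JUNB (ENSG00000171223, chromosome 19, 12791496 to 12793315, plus strand) had 20.8, 26.6 and 23.4 CPM in BARD1-expressing libraries and 15.7, 13.6 and 15.7 CPM in control libraries. The groups stood apart, with a log2 fold change of 0.66 ± 0.102 (SE, edgeR adjusted p = 1.99e-05, exact permutation p = 0.1), and the call held in 13 of 13 alternative settings, within 0.55 to 0.74. JUNB shares 259 of its 1820 exonic bases with HOOK2, a gene of the opposite strand that had a log2 fold change of 0.16 ± 0.114 (SE, edgeR adjusted p = 0.333). The sources used here do not say if strand was used in counting, so reads in those shared bases cannot be assigned with certainty. JUND (ENSG00000130522, chromosome 19, 18279760 to 18281622, minus strand) measured 65.5, 75.9 and 71.8 CPM in BARD1-expressing cells against 75.1, 78.4 and 71.1 CPM in control cells. The JUND groups overlapped and the difference did not pass (log2 fold change -0.07 ± 0.065 SE, edgeR adjusted p = 0.458).

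**Figure D2:**
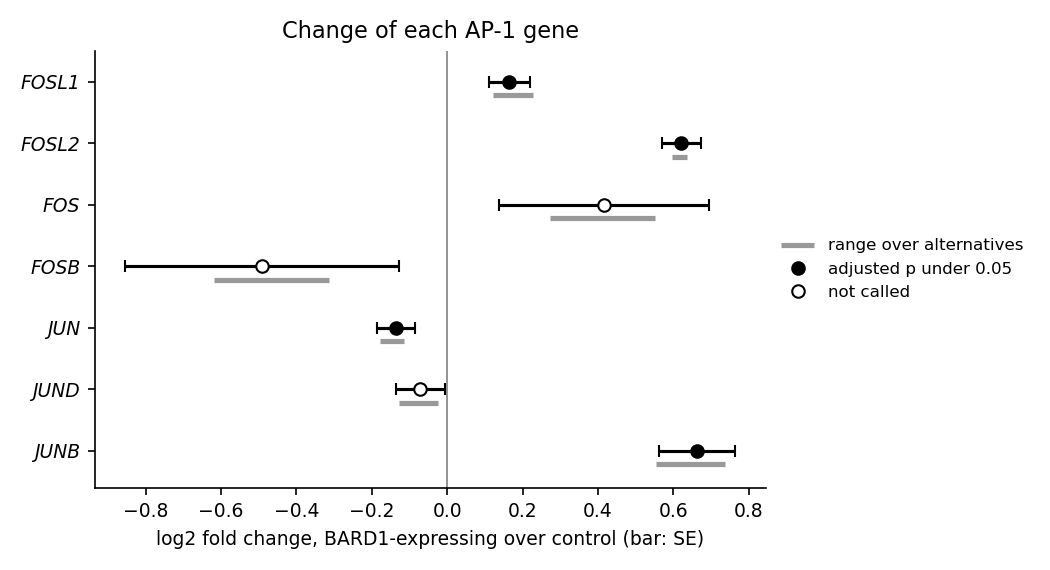
Log2 fold change (BARD1-expressing over control) of each AP-1 gene with its SE, filled where the adjusted p is under 0.05, and in grey the range over 13 alternative settings (12 for FOSB). The ranges of FOSL2 and JUNB stay above 0.55, and those of FOSL1 and JUN lie within 0.25 of 0.

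The members differ in gene structure and lie on 5 chromosomes. JUN, JUNB and JUND each consist of 1 exon block, so that their length equals their span, whereas the FOS class genes are spliced. JUNB, JUND and FOSB share chromosome 19, where JUNB rose and the other two did not pass. The 24 nearest expressed protein-coding genes had a median log2 fold change of -0.05 around FOSL2, -0.01 around JUNB, 0.03 around FOSL1 and -0.11 around JUN. Around FOSL2, JUNB and FOSL1 this lay below the change of the member, and around JUN it was near that of JUN itself (-0.14).

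Levels of different genes were compared as TPM, in which counts are divided by the deposited gene length before scaling. In the FOS class the order in both groups was FOSL1, FOSL2, FOS and FOSB. FOSL1 had 809, 853 and 828 TPM in BARD1-expressing libraries against 701, 687 and 775 TPM in control libraries, groups that stand apart on this scale and overlap in CPM. FOSL2 had 102, 99.1 and 96.2 TPM against 61.2, 63.2 and 63.4 TPM in controls, while FOS and FOSB stayed at 2.31 TPM or less in each library. In the JUN class the order was JUN, JUND and JUNB in both groups. JUN had 278 ± 7.10 TPM in BARD1-expressing and 298 ± 4.48 TPM in control cells, JUND 150 ± 7.94 and 154 ± 8.89 TPM, and JUNB 50.9 ± 5.22 and 31.6 ± 2.40 TPM (SD, n = 3 each).

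Shares within each class were taken from TPM and depend on the division by gene length. FOSL2 supplied 11.1%, 10.4% and 10.4% of FOS class TPM in BARD1-expressing libraries and 8.01%, 8.41% and 7.54% in control libraries, with FOSL1 making up nearly all of the rest (89.1 ± 0.446% and 91.7 ± 0.432%, SD, n = 3 each). JUNB supplied 9.96%, 11.3% and 10.6% of JUN class TPM in BARD1-expressing and 6.85%, 5.83% and 6.94% in control libraries. The ratio of JUN to JUNB was 5.95, 5.09 and 5.44 in BARD1-expressing against 8.93, 10.5 and 8.98 in control libraries. Summed over members, the FOS class stood at 932 ± 20.9 TPM in BARD1-expressing and 786 ± 48.2 TPM in control cells and did not overlap. The JUN class sums overlapped, at 479 ± 19.6 TPM and 483 ± 11.04 TPM (SD, n = 3 each). The ratio of FOS class to JUN class was 1.98, 1.91 and 1.94 in BARD1-expressing and 1.58, 1.52 and 1.78 in control libraries. The share differences between BARD1-expressing and control cells were 2.64 (FOSL2), -2.63 (FOSL1) and 4.07 (JUNB) percentage points in TPM, and 6.31, -6.25 and 2.71 percentage points in CPM, which take no account of gene length. These sums and shares were not tested.

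**Figure D3:**
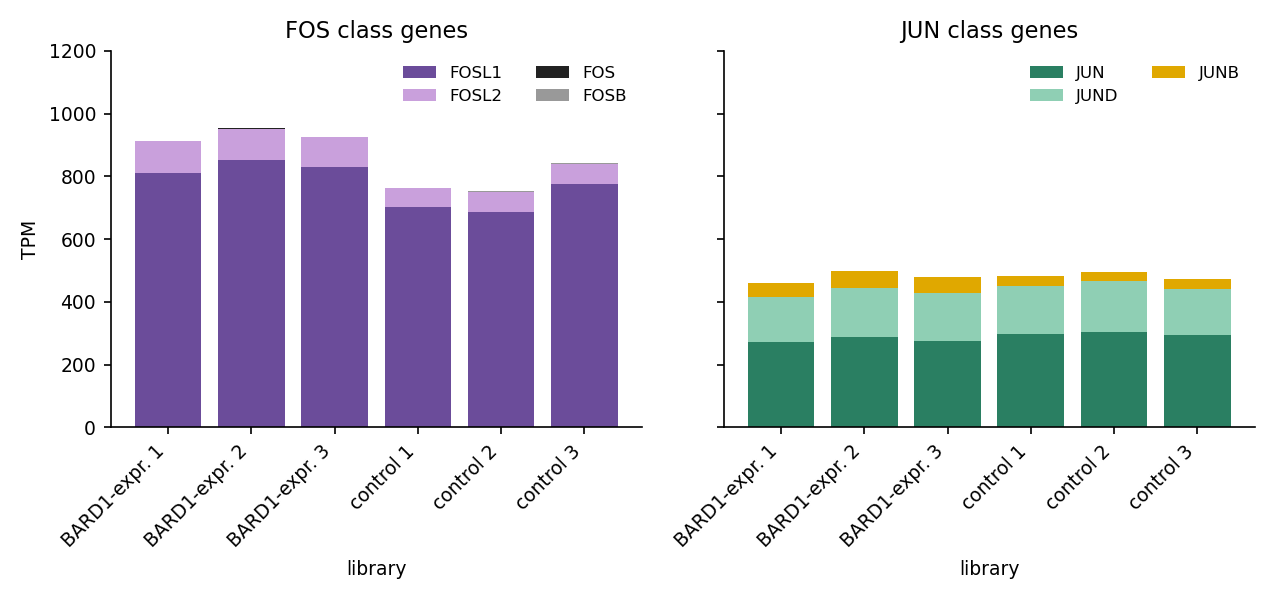
TPM of the FOS class genes (left) and JUN class genes (right) stacked per library, BARD1-expressing libraries first. FOSL1 fills 88.6% to 92.2% of the FOS class and JUN 57.3% to 62.4% of the JUN class, and the FOSL2 and JUNB segments are taller in the BARD1-expressing libraries.

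Among 16 other zipper proteins known to pair with FOS or JUN, 13 were tested, of which 3 rose and 0 fell by edgeR (2 lower at an unadjusted p under 0.05, 0 by DESeq2 and 0 by limma-voom). MAFA, a large MAF factor, stood at 10.5 ± 1.10 CPM in BARD1-expressing and 5.48 ± 1.37 CPM in control cells (SD, n = 3 each, log2 fold change 0.94 ± 0.153 SE). JDP2, a JUN dimerization partner that represses AP-1 sites, rose by 0.29 ± 0.081, and the small MAF gene MAFF by 0.20 ± 0.074. The JDP2 call was lost without BARD1-expressing library 2 or without control library 2 (edgeR adjusted p up to 0.0631), and the MAFF call was lost in 11 of 13 alternative settings, with an adjusted p of 0.362 without BARD1-expressing library 2. ATF3, a stress-induced partner of JUN, was not called (-0.33 ± 0.208, edgeR adjusted p = 0.256), and neither was ATF2 (0.06 ± 0.064). BATF had no read in any library. The median of the list was 0.07, and its share of called genes (23.1%) lay below the 29.0% of all tested genes.

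MAP kinases raise AP-1 activity by phosphorylating JUN, the FOS proteins and the factors that drive their genes. Of 19 genes of these cascades 18 were tested, and 5 rose and 0 fell by edgeR (0 lower at an unadjusted p under 0.05, and 0 lower by DESeq2 or limma-voom), with a median log2 fold change of 0.01. MAPK8, the gene of the JUN kinase JNK1, had 68.9 ± 4.04 CPM in BARD1-expressing and 52.4 ± 3.32 CPM in control cells (0.39 ± 0.068, edgeR adjusted p = 9.59e-05). The genes around MAPK8 on chromosome 10 had a median of 0.28. MAP2K4, which activates JNK, rose by 0.34 ± 0.086 and MAP2K3, which activates p38, by 0.25 ± 0.065. The called share (27.8%) was close to the background.

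SRF and its cofactors drive FOS and other serum-induced genes, and CREB drives FOS through a separate site. All 8 genes of this list were tested, and 2 rose and 2 fell, beside 16.5% of all tested genes that were higher and 12.4% that were lower. SRF fell to 46.3 ± 5.19 CPM in BARD1-expressing cells, against 56.2 ± 0.745 CPM in control cells (SD, n = 3 each, log2 fold change -0.27 ± 0.074 SE, edgeR adjusted p = 0.00744). ELK3, a partner of SRF that can repress, fell by 0.26 on the log2 scale. ELK4, another SRF partner, rose by 0.23 ± 0.073 and MEF2D, which acts at the JUN promoter, by 0.32 ± 0.077. The ELK4 call was lost without BARD1-expressing library 2 or 3 or control library 1 or 2 (edgeR adjusted p up to 0.119). Of 5 genes of JUN and FOS protein turnover, 4 were tested and 0 were called by edgeR, DESeq2 or limma-voom, with 0 at an unadjusted p under 0.05 in edgeR.

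Other immediate early genes, which share their inducers with FOS, moved both ways. Of 30, 28 were tested, and 6 rose and 5 fell (median log2 fold change 0.07). That is 39.3% called, beside 29.0% of all tested genes, and the difference was not tested. This list too was chosen with earlier results of these data known. EGR1, a zinc finger factor, had 11.5, 13.7 and 10.9 CPM in BARD1-expressing against 3.22, 3.02 and 2.77 CPM in control libraries (2.01 ± 0.145, edgeR adjusted p = 1.32e-10). EGR1 lies on chromosome 5 among genes that rose too, with a median of 0.61 over its 24 neighbours. The MAP kinase phosphatase genes DUSP1 (0.47 ± 0.062) and DUSP5 (0.42 ± 0.064) rose as well, in surroundings with a median of 0.05 each. GADD45B (-0.47 ± 0.069), IER5 (-0.32 ± 0.060) and SGK1 (-0.50 ± 0.124) fell. IER2 (-0.00 ± 0.080) and ZFP36 (-0.30 ± 0.172), serum-induced genes like FOS, were not called.

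Of 30 known AP-1 target genes, 22 were tested, 13 rose and 3 fell, with a median log2 fold change of 0.28. The called share was 72.7%, beside 29.0% of all tested genes, and that difference was not tested. The list was chosen with earlier results of these data known, so a share above that of all tested genes may come from that choice. The chemokine gene CXCL8 had 10.5, 11.0 and 10.6 CPM in BARD1-expressing libraries against 1.20, 0.964 and 0.923 CPM in control libraries (3.36 ± 0.177, edgeR adjusted p = 6.45e-13). PLAU, the urokinase gene, had 73.7, 74.9 and 73.8 CPM against 31.6, 35.3 and 31.1 CPM in controls (1.18 ± 0.068, edgeR adjusted p = 3.33e-12). HBEGF, a growth factor of the EGF family, rose by 0.96 ± 0.078, within a stretch of chromosome 5 whose 24 neighbouring genes had a median of 0.65. The interstitial collagenase MMP1, added to the named genes after its value was seen, had 202 ± 10.2 CPM in BARD1-expressing and 119.8 ± 17.5 CPM in control cells (0.76 ± 0.089).

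The targets that fell were the gap junction gene GJA1, the EGF family ligand AREG and the metalloproteinase inhibitor TIMP1. GJA1 had 42.1, 40.9 and 42.9 CPM in BARD1-expressing against 79.2, 82.9 and 88.8 CPM in control libraries (-0.997 ± 0.065, edgeR adjusted p = 2.83e-11). AREG had 1.49, 1.53 and 1.53 CPM against 4.54, 5.65 and 5.49 CPM in controls (-1.78 ± 0.200, edgeR adjusted p = 2.15e-07), and TIMP1 fell by 0.29 on the log2 scale. The heptamer is printed above for CXCL8, which rose, and for GJA1, which fell. It was present in 8 of 17 target genes with a single promoter window. Among these it was in 2 of 7 that rose, 1 of 3 that fell, 2 of 2 that were not called and 3 of 5 with too few reads to test. MMP3, MMP10 and MMP13, matrix metalloproteinase genes that AP-1 drives in other cells, were among the 8 listed targets that could not be tested.

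**Figure D4:**
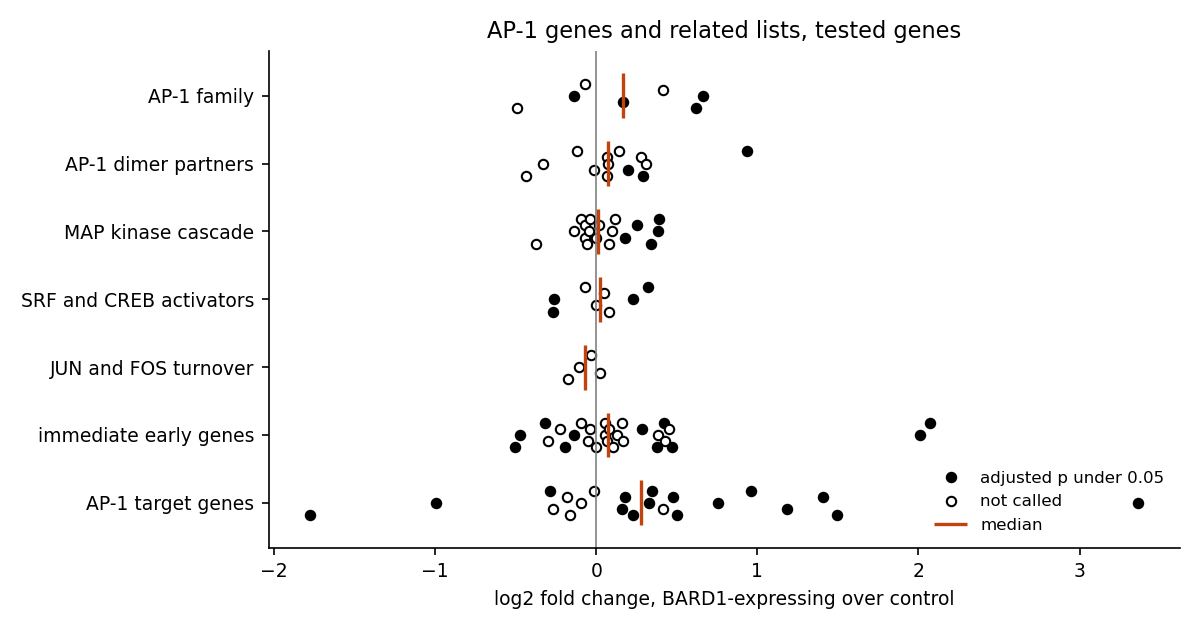
Log2 fold change (BARD1-expressing over control) of each tested gene of the AP-1 family and 6 related lists, filled where the adjusted p is under 0.05, with the list median in red. AP-1 target genes spread from -1.78 (AREG) to 3.36 (CXCL8), while MAP kinase genes and SRF and CREB activators stay within 0.4 of 0.

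Genes with the most similar profile were sought for each called member among expressed protein-coding genes, as the smallest Euclidean distance between centred log2 CPM over the 6 libraries. For FOSL2 they were ARHGAP45 (distance 0.06), PURA (0.07) and ST3GAL4 (0.08), for JUNB APBA1 (0.07), INHBB (0.11) and LAGE3 (0.14), for FOSL1 GPCPD1 (0.04), PHC3 (0.05) and NLK (0.06), and for JUN TRIM27 (0.03), ISCU (0.03) and UBXN7 (0.03). Since these genes were chosen for their likeness over the same 6 libraries, their fold changes lie near that of the member by construction. The 3 genes nearest FOSL1, and ISCU among those nearest JUN, did not themselves pass the test (edgeR adjusted p = 0.331 for GPCPD1, 0.127 for PHC3, 0.116 for NLK and 0.136 for ISCU).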

How the data were processed

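Whole-number read counts per gene were used as deposited by the authors, for 58735 genes in 6 libraries, with gene length in bases as another deposited column. The submitters' processing notes name GRCh38 with DESeq2 1.20.0, featureCounts 1.5.0-p3 and HISAT2 2.0.5; their options are not given in the sources used here. Per the labels' protocols, mRNA was poly(T)-selected, and second strand synthesis is described for stranded and for unstranded libraries alike. Testing used edgeR 4.0.16 in R 4.3.3 (filterByExpr, TMM, robust quasi-likelihood F test on group alone), adjusted over all 15400 tested genes by Benjamini-Hochberg; DESeq2 1.42.0 and limma-voom (limma 3.58.1) were alternatives. A positive log2 fold change means a higher level in BARD1-expressing cells. TPM were computed from counts and deposited length. Exon blocks and overlaps came from GENCODE release 29 (GRCh38) and promoters from RefSeq. A count of 0 allows 3 counts, 0.124 to 0.236 CPM across libraries (counting error only).

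The members and gene lists were chosen with earlier results of these data known. The text names all members, the called genes with the 3 smallest p in each direction of each list, the 3 nearest profiles of each called member (protein-coding genes averaging 5 CPM or more), and BARD1; other genes were chosen after their values were seen. Symbols MKL1, MKL2 and RFWD2 were matched as MRTFA, MRTFB and COP1. No pair of libraries in a group held identical counts, and the chi-square per degree of freedom ran from 3.41 to 8.11, so all were kept. Replicates are called biological in the labels without saying whether cultures were separate, so p-values cover only the spread seen among these 6, which may be technical. The fit was tested on simulated data with 200 changed genes, far fewer than were called here. It recovered 73.2% of 1.5-fold, 77.6% of 2-fold and 98.2% of 4-fold changes, and 5.92% of its calls were false. Smaller changes, such as those of FOSL1 and JUN, were not simulated.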

Additional observations from a re-analysis of the deposited data

How the results depend on the processing

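FOSL2 and JUNB kept direction and call in 13 of 13 alternative settings. FOSL1 and JUN kept their direction in those settings but lost their call with the replicate block, at 0.17 (adjusted p = 0.0510) and -0.14 (adjusted p = 0.101), and in several fits without 1 library, where they ranged from 0.12 to 0.23 and from -0.18 to -0.11. The number of members called was 4 in the other 6 settings, 2 with the block, and 2 to 3 with 1 library left out. MAP kinase genes called numbered 3 with DESeq2, library totals alone, no filter on low counts or the block, and 3 to 4 with 1 library left out. With 1 library left out, called dimer partners numbered 1 to 3 and called bZIP genes outside the AP-1 family 8 to 17. Counted without gene length, the share differences between BARD1-expressing and control cells were 6.31 (FOSL2), -6.25 (FOSL1) and 2.71 (JUNB) percentage points in place of 2.64, -2.63 and 4.07, which follows from the lengths. FOSB was not tested under the filter of a mean of 1 CPM. Deviations of same-numbered libraries from their group means correlated at -0.112, -0.0315 and -0.00885 over 15400 genes. Differently numbered libraries correlated from -0.113 to 0.150, a range that holds the same-numbered values. With 3 libraries a group, these correlations cannot settle whether replicate numbers pair the libraries. The causes of lost calls were not tested; each fit without a library has fewer samples.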

Other observations

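Outside the AP-1 family, 41 further genes carry the bZIP family label in the deposited table, and 35 were tested, of which 7 rose and 6 fell. That is 37.1% called, beside 29.0% of all tested genes, and the difference was not tested. These counts include 16 of the dimer partners and CREB1 described above. The endoplasmic reticulum factor CREB3L2 had 131 ± 4.42 CPM in BARD1-expressing and 64.7 ± 2.82 CPM in control cells (SD, n = 3 each, log2 fold change 1.02 ± 0.057 SE, edgeR adjusted p = 2.36e-12), and its paralog CREB3L1 rose by 0.64 ± 0.079. ATF5, a factor of the stress responses, fell to 35.6 ± 4.30 CPM in BARD1-expressing cells, against 60.9 ± 1.10 CPM in control cells (SD, n = 3 each, -0.77 ± 0.077). NFE2L3, a relative of NRF2 that pairs with small MAF proteins, had 14.5 ± 0.523 CPM in BARD1-expressing and 25.0 ± 1.72 CPM in control cells (SD, n = 3 each, -0.79 ± 0.092), and NFIL3, a repressor, fell by 0.52 on the log2 scale. ATF4, the master factor of the integrated stress response, was not called (-0.12 ± 0.050, edgeR adjusted p = 0.0802).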
